A study of Mus musculus with 6 samples.

Results

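The genes described here are 40 mouse genes of 3 cell guidance systems: ephrins with their Eph receptors, Slits with their Robo receptors, and class 3 semaphorins with plexins and neuropilins. They were taken as a fixed list by name, chosen with earlier results of these data known. The list leaves out some genes of these families, which are counted among 64 further guidance genes below. Family counts therefore cover the listed genes only. All 40 were found among 21631 protein-coding genes of the GRCm38.p6 annotation on the 20 chromosomes that carry peaks. For each gene, peaks of a GLI3R pull-down were counted when the summit, the highest point of the peak, lay within 50 kb of the gene's mm10 interval. That gave 29 of 3640 peaks from doxycycline-treated cells and 21 of 4379 peaks from untreated cells.

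The cells were cardiac progenitors derived from mouse embryonic stem cells of the A2Lox.cre background (line GLI3R-FTA), harvested on day 6. All were of this line, named for GLI3R, the repressor form of the Hedgehog effector GLI3, with an FTA tag. Treated cells, named GLI3R overexpression in the titles, received 500 ng/ml doxycycline for 24 h from day 5. Untreated cells, named control, received none. Tagged protein was pulled down through its Avi tag on streptavidin beads, in 2 libraries per condition, beside 1 input library per condition. The treatment protocol in the labels speaks of GLI1 where the titles say GLI3R, and the titles were followed. Whether the line is 1 clone is not given in the sources used here. The peak lists hold no expression values, so the labelled cell type could not be checked against its markers. Nor do they give the amount of tagged protein in either condition. Whether untreated summits are GLI3R binding or background of the pull-down was not tested. Each condition has 1 list, no peak has a replicate error, and no test between conditions was possible; what follows describes these 2 lists.

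Eph receptors are receptor tyrosine kinases that bind ephrins on neighbouring cells, and signals run into both cells; the contact often makes the cells part or keeps tissues separate. Slits are secreted proteins that repel cells through Robo receptors. Class 3 semaphorins are secreted too, and most of them bind neuropilins, which hand the signal to plexins. These systems were first studied in growing axons. In the embryo they also steer neural crest cells into the outflow tract of the heart, shape the heart tube and chambers, and separate arteries from veins.

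No genome sequence was used here, so the bases under the peaks are not shown. RefSeq promoter windows of GRCm38.p6 (250 bases before to 50 bases after a transcription start) were found for 35 of the 40 genes, 41 windows in all. Efna4 and Epha7 are shown because their starts lie closest to a doxycycline summit. The 250 bases before the start of Efna4 lie on chromosome 3, 89338029 to 89338278, minus strand. Those of the first Epha7 start lie on chromosome 4, 28812881 to 28813130, plus strand. Capitals mark CCACCC, the core of the GLI motif, where it occurs on either strand; the Epha7 window holds none. The doxycycline peaks themselves lie downstream of both starts, outside these bases.
Efna4: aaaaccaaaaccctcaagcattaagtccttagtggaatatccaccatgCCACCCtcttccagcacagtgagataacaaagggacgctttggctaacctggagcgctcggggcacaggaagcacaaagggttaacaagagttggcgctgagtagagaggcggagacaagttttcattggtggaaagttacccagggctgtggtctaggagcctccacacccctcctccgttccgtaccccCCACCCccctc
Epha7: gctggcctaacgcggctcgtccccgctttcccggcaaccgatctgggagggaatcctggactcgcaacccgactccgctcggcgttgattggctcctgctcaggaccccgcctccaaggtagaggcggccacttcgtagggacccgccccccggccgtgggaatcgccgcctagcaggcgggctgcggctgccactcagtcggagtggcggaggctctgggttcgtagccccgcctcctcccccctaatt

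The whole 9-letter GLI motif GACCACCCA, searched on both strands, was in 0 of the 41 windows of guidance genes and in 0.253% of all 32851 windows. With up to 1 mismatch it was in 3 of the 41 (7.32%, against 6.74% of all windows). These 3 are shown because they are the nearest matches among the guidance genes. Each match lies on the strand opposite the gene, so the capitals read as the reverse complement of the motif. Ephb3 (chromosome 16, 21204656 to 21204684) has the substitution A5G. Epha6 (chromosome 16, 60605636 to 60605664) has C8G. Plxna2 (chromosome 1, 194619691 to 194619719) has A2T. Positions are counted from 1 at the 5′ end of GACCACCCA, with the motif's base first. The doxycycline summit nearest to these starts was 41.5 kb away at Ephb3, 193 kb at Epha6 and 52.1 kb at Plxna2.
Ephb3: accagctggcTGGGCGGTCtgtgagtggg
Epha6: tgccgccgagTCGGTGGTCacgaggcgac
Plxna2: gccgggttctTGGGTGGACcagctagggt

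The 6-letter core CCACCC, which lies within the 9-letter motif, was in 19 of the 41 windows (46.3%) and in 31.5% of all windows. The guidance gene windows were richer in G and C, with a median of 64.3% against 52.7%. Among windows of at least 60% G and C, the core was in 14 of 30 of the guidance genes (46.7%) and in 43.1% of all 9690. A match in these letters is a description and not a binding site.

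Doxycycline summits lay within 50 kb of 19 of the 40 genes (47.5%), against 20.3% of all protein-coding genes. Untreated summits lay within 50 kb of 12 (30.0%), against 19.1%. Guidance genes are long, with a median length of 131 kb against 17.3 kb for all genes, and a long gene has more room for a summit. Among genes of the same length class, the shares of all genes would place a doxycycline summit near 12.5 of the 40 and an untreated summit near 13.3. The observed 19 lies above the first number and the observed 12 below the second. Of the 40, 7 had summits of both lists, 12 of the doxycycline list only, 5 of the untreated list only, and 16 of neither. As shares these are 17.5%, 30.0%, 12.5% and 40.0%, against 5.03%, 15.3%, 14.0% and 65.7% of all genes, so the share with untreated summits only is near its background. Since no gene was counted in replicate, these numbers carry no error.

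**Figure D1:**
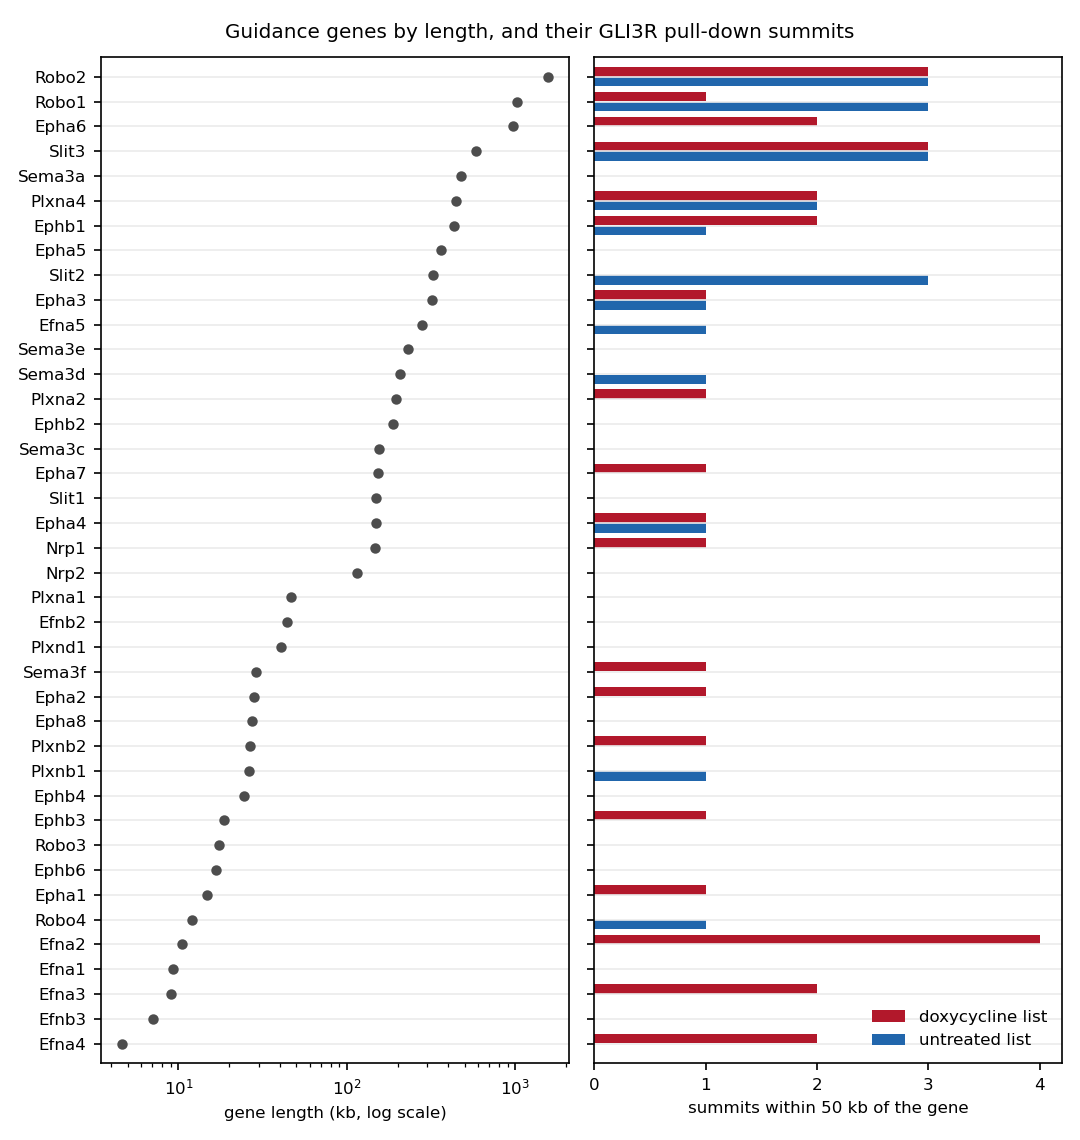
Left, length of each guidance gene in kb on a log scale; right, number of doxycycline (red) and untreated (blue) summits within 50 kb of it, with genes ordered by length. The 10 longest genes hold 16 of the 21 untreated summits, while doxycycline summits also lie at the short ephrin genes at the bottom.

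Among the guidance genes, the lists placed their summits at genes of different length. At the 19 guidance genes shorter than 100 kb there were 11 doxycycline and 2 untreated summits, and at the 10 genes of 300 kb or more there were 14 and 16. Over all genes there were 1696 and 1599 under 100 kb, and 463 and 687 at 300 kb or more. Of the 11, those at Efna2, Epha1 and Plxnb2 have another gene as nearest. Under 20 kb, 5 of 10 genes had a doxycycline summit (16.2% of all genes of that length) and 1 of 10 an untreated one (13.5%). From 20 to 100 kb the counts were 3 of 9 (21.2%) and 1 of 9 (20.4%). From 100 to 300 kb they were 4 of 11 (32.2%) and 3 of 11 (35.1%). At 300 kb or more they were 7 of 10 (54.4%) and again 7 of 10 (62.5%). The widest gap from the background was thus among the shortest genes in the doxycycline list, where the 5 genes stand for 4 neighbourhoods, since Efna3 and Efna4 share their summits. Of these 5 genes, only Efna4 and Ephb3 are the nearest gene to their summits. The other classes differed from their background by 2 genes or fewer.

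**Figure D2:**
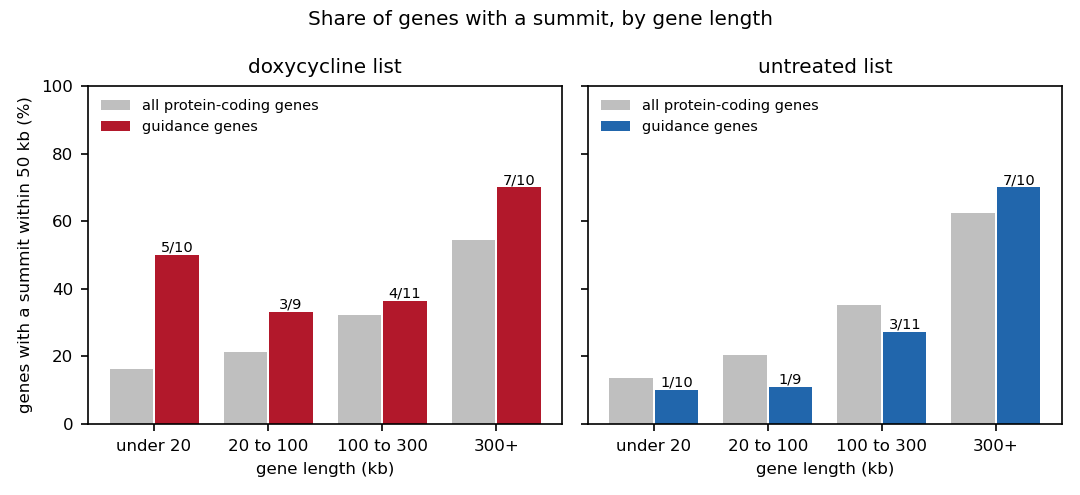
Share of genes with a summit within 50 kb, in percent, by gene length in kb, for all protein-coding genes (grey) and the guidance genes (colour, with their counts), in the doxycycline list (left) and the untreated list (right). In both lists the share over all genes climbs with length, and the shortest guidance genes stand at 5 of 10 in the doxycycline list.

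Per length of sequence searched, doxycycline summits inside guidance genes came to 1.91 per Mb (exact 95% Poisson interval 1.12 to 3.06) against 1.55 per Mb inside all genes. In the 50 kb flanks the density was 3.21 per Mb (1.66 to 5.61) against 1.55. Flanks of guidance genes can hold other genes, while the flanks over all genes leave out every protein-coding gene. The flank densities therefore compare unlike sequence. Untreated summits came to 2.03 per Mb inside (1.20 to 3.20) against 1.60, and to 0.802 per Mb in the flanks (0.165 to 2.35) against 1.73. Intervals here and below cover counting error only and treat summits as independent. Of these 4 densities, only that of the doxycycline flanks had an interval that left out the value of all genes, by a narrow margin, and 4 of its 12 summits lie at Efna2.

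Peaks near these genes were mostly small. The pileup, the number of fragments stacked at the summit, was worked back from the deposited values. It ran from 5 to 21 with a median of 7 in the doxycycline list, the same median as over the whole list, and from 4 to 8 with a median of 4 in the untreated list, against 5 overall. Of the 29 doxycycline summits, 6 had the smallest pileup of that list, 5 fragments (interval 1.62 to 11.7). Of the 21 untreated summits, 11 had the smallest, 4 fragments (1.09 to 10.2). The same 5 fragments gave 4.39-fold enrichment at Epha3 in the doxycycline list and 4.72-fold at Ephb1 in the untreated list. Fold and fragments, here and below, are therefore to be compared only within a list. The −log10 q, the authors' value for how far a peak stands above its local expectation after correction, was at least 5 for 12 of 29 doxycycline summits (41.4%, against 33.3% of the list). It was at least 5 for 1 of 21 untreated summits (4.76%, against 9.41%). With that threshold 11 guidance genes kept a doxycycline summit (27.5%, against 8.52% of all genes) and 1 an untreated one (2.50%, against 1.997%). These shares are not adjusted for gene length. The 11 count both Efna3 and Efna4 for the same peak. They also hold Efna2, Epha1 and Epha6, whose peaks at this threshold have another gene as nearest.

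**Figure D3:**
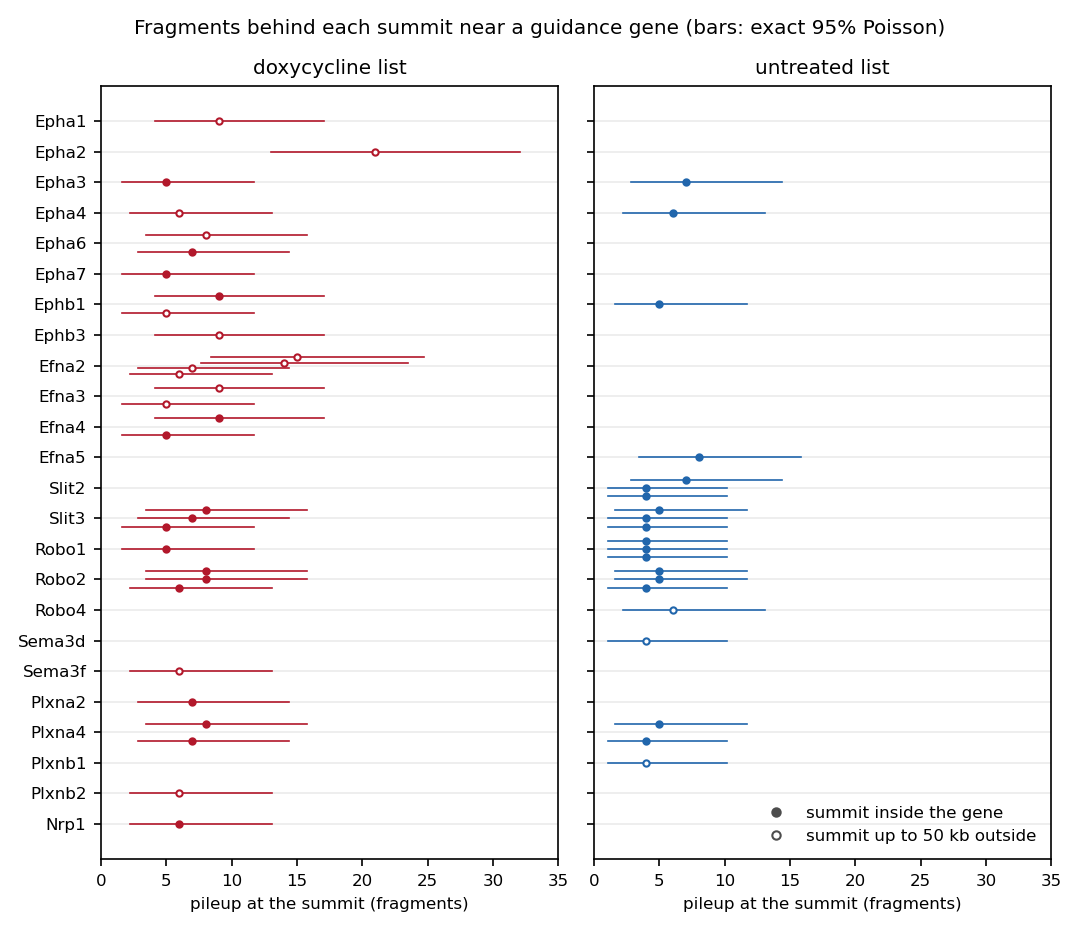
Pileup in fragments at each summit within 50 kb of a guidance gene, with exact 95% Poisson intervals as bars, for the doxycycline list (left) and the untreated list (right); filled points lie inside the gene and open points outside. Only Epha2, with 21 fragments, and 2 of the 4 summits of Efna2, with 14 and 15, exceed 9 fragments, and most intervals overlap. The 2 summits of Efna4 are drawn again at Efna3.

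Ephrins, the cell-bound ligands, are mostly short genes, with a median length of 9.22 kb, and 3 of 7 had doxycycline summits while 1 of 7 had an untreated one. Length class shares give 1.34 and 1.23, so the untreated count is near its background. The 3 with doxycycline summits are Efna2, Efna3 and Efna4, and the last 2 share their summits. Efna2, a lipid-anchored ephrin of 10.5 kb, had 4 doxycycline summits, the most of any guidance gene, and 0 untreated ones. All 4 lie upstream of it. The strongest (chromosome 10, 80151722 to 80151984) is 27.6 kb away at 10.9-fold enrichment, −log10 q 13.7 and 14 fragments (interval 7.65 to 23.5). Its neighbour at 26.8 kb reached 10.3-fold with 15 fragments, and those at 17.9 and 15.4 kb reached 5.04-fold and 5.25-fold with 6 and 7. None has Efna2 as its nearest gene: the first 2 lie inside Midn, the next 3.19 kb from Midn and the last 1.96 kb from Cirbp. There are 7 other protein-coding genes within 50 kb of Efna2.

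Efna4, the shortest guidance gene at 4.64 kb, had 2 doxycycline summits inside it and 0 untreated ones. The stronger (chromosome 3, 89337548 to 89337749) is 0.376 kb downstream of the transcription start, at 7.31-fold, −log10 q 6.61 and 9 fragments (4.12 to 17.1). The other is 1.5 kb downstream of the start, at 4.32-fold with 5 fragments. Both also count for the neighbouring ephrin gene Efna3, at 14.7 and 13.6 kb upstream of it, so Efna3 and Efna4 are 1 observation. Efna1, further along the same cluster, lies 56.7 and 55.6 kb from these summits, beyond the 50 kb limit, and had 0 of its own.

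Efna5, the longest ephrin gene at 278 kb, went the other way, with 0 doxycycline summits and 1 untreated summit. That peak (chromosome 17, 62803219 to 62803404) lies inside the gene, 78.0 kb from its 5′ end, at 7.07-fold, −log10 q 6.07 and 8 fragments (3.45 to 15.8). It is the highest −log10 q of any untreated peak near a guidance gene. Efnb2 and Efnb3, ephrins that span the membrane, had 0 in both lists; Efnb2 marks arteries.

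Eph receptors of class A, which bind the lipid-anchored ephrins, had doxycycline summits at 6 of 8 genes and untreated summits at 2 of 8. The numbers from length class shares were 2.86 and 3.12. Epha2 held the strongest peak near any guidance gene (chromosome 4, 141283769 to 141284014). It lies 17.3 kb upstream of the start, with Epha2 as its nearest gene, at 16.1-fold, −log10 q 25.5 and 21 fragments (13.0 to 32.1). It ranked 54 of the 3640 doxycycline peaks by −log10 q, and Epha2 had 0 untreated summits. Epha1, of 14.8 kb, had 1 doxycycline summit 0.488 kb beyond its 3′ end (chromosome 6, 42357932 to 42358081) at 6.95-fold, −log10 q 6.03 and 9 fragments. That summit lies inside the neighbouring gene Zyx.

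The remaining class A receptors with summits are long genes with small peaks. Epha6 (969 kb) had 2 doxycycline summits and 0 untreated ones. The stronger (chromosome 16, 59639464 to 59639624, 6.39-fold, −log10 q 5.13, 8 fragments) lies 1.89 kb beyond the 3′ end and 0.132 kb from Arl6. The other lies inside Epha6, 821 kb from its 5′ end, at 5.85-fold. Epha7 had 1 doxycycline summit of 5 fragments, 1.70 kb downstream of a start, at 4.39-fold, and 0 untreated ones. Epha3 had 1 of each inside the gene, 50.5 kb apart, at 4.39-fold with doxycycline (5 fragments) and 6.29-fold without (7 fragments; chromosome 16, 63679622 to 63679758; −log10 q 4.81). Epha4, a receptor that binds ephrins of both kinds, had a doxycycline summit 26.8 kb upstream at 5.12-fold with 6 fragments. Its untreated summit lies inside the gene (chromosome 1, 77371843 to 77371992) at 5.50-fold with 6 fragments. Epha5 and Epha8 had 0 in both lists.

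Eph receptors of class B, the main receptors of the membrane-spanning ephrins, had doxycycline summits at 2 of 5 genes and an untreated summit at 1 of 5, near the 1.40 and 1.45 that length class shares give. Ephb1 (433 kb) had 2 doxycycline summits. The stronger (chromosome 9, 101959931 to 101960152) lies inside the gene, 395 kb from its 5′ end, at 7.31-fold, −log10 q 6.61 and 9 fragments; the other lies 39.2 kb upstream at 4.39-fold. Its untreated summit (chromosome 9, 102252192 to 102252355) lies inside, at 4.72-fold with 5 fragments. Ephb3, of 18.7 kb, had 1 doxycycline summit 23.0 kb beyond its 3′ end (chromosome 16, 21246127 to 21246438), at 6.68-fold, −log10 q 5.52 and 9 fragments. Ephb3 is the nearest gene to it and no other protein-coding gene lies within 50 kb of Ephb3. Ephb2, Ephb4, the receptor that marks veins, and Ephb6, whose kinase is inactive, had 0 in both lists.

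In the Slit and Robo genes, 5 of 7 genes had untreated summits, 13 in all, and 3 of 7 had doxycycline summits, 7 in all. For the Slits the length class shares give 1.60 untreated and 1.41 doxycycline genes, where 2 and 1 were observed, and for the Robo receptors 1.52 and 1.41, where 3 and 2 were observed. Untreated summits are the more numerous inside all genes of 300 kb or more as well, with 566 against 383. Except for the untreated summit at Robo4, every one lies inside its gene. Inside the 3 Slit genes the density of untreated summits was 5.64 per Mb (2.07 to 12.3) and of doxycycline summits 2.82 per Mb (0.582 to 8.25). Inside the 4 Robo genes it was 2.3 (0.845 to 5.01) and 1.54 (0.418 to 3.93). Inside all genes of 300 kb or more it was 1.79 per Mb for untreated and 1.21 per Mb for doxycycline summits. The untreated interval of the Slit genes lies above the 1.79, with 6 summits in 2 genes, and the other 3 intervals include the value of their list. Those 6 summits have 4 to 7 fragments, and 4 is the smallest pileup of the untreated list. Such intervals were formed for all 8 families in both lists, so 1 that stands apart carries little weight. The intervals of the lists overlap in both families.

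Slit3 (587 kb), a secreted ligand, had 3 summits of each list. The doxycycline summits lie 76.0, 381 and 441 kb from its 5′ end, at 4.39-fold, 6.48-fold and 5.34-fold, with 5, 8 and 7 fragments. The strongest of them (chromosome 11, 35502277 to 35502506) has a −log10 q of 5.32. The untreated ones lie 11.1, 146 and 219 kb from the 5′ end, at 3.93-fold, 3.93-fold and 4.72-fold, with 4, 4 and 5 fragments. Its strongest untreated peak is at chromosome 11, 35340286 to 35340424. Slit2 (326 kb) had 0 doxycycline summits and 3 untreated ones, 32.6, 158 and 187 kb from its 5′ end, with 4, 4 and 7 fragments. The strongest of these (chromosome 5, 48168477 to 48168630) reached 6.29-fold and −log10 q 4.81. Slit1 had 0 in both lists.

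Robo2, at 1555 kb the longest guidance gene, had 3 summits of each list inside it. The doxycycline summits lie 207, 1045 and 1399.8 kb from its 5′ end, with 8, 6 and 8 fragments. The pair with 8 fragments (chromosome 16, 75240163 to 75240319 and 74047528 to 74047665) reached 6.58-fold and −log10 q 5.34. The untreated summits lie 309, 316 and 505 kb from the 5′ end, with 5, 4 and 5 fragments. The pair with 5 fragments (75138569 to 75138770 and 74942317 to 74942525) reached 4.72-fold. Robo1 (1020.0 kb) had 1 doxycycline summit of 5 fragments, 844 kb from its 5′ end. Its 3 untreated summits, each of 4 fragments, lie 292, 640.1 and 753 kb from the 5′ end. Per Mb of gene and flanks, Robo1 had 0.893 doxycycline and 2.68 untreated summits, and Robo2 1.81 of each. Robo4, the endothelial Robo of 12.1 kb, had 1 untreated summit (chromosome 9, 37355180 to 37355335) 46.7 kb upstream, at 5.50-fold with 6 fragments; Ccdc15 is nearer to it, at 5.03 kb. Robo3, which guides axons across the midline, had 0 in both lists.

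**Figure D4:**
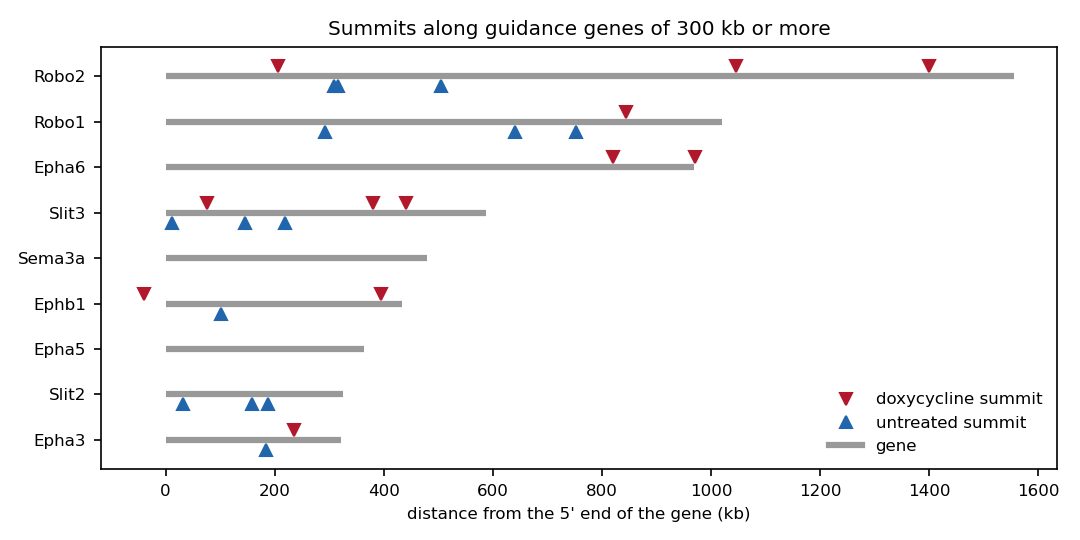
Guidance genes of 300 kb or more with a known strand, drawn from their 5′ end in kb, with doxycycline summits (red, above) and untreated summits (blue, below). Robo2 and Slit3 hold 3 of each, no red and blue summit coincide, and the closest pair shown, in Epha3, is 50.5 kb apart.

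The class 3 semaphorins counted here, which are not the whole class, had a summit at 1 of 5 genes in each list. That is within 1 gene of the 1.72 and 1.88 from length class shares. Sema3f had 1 doxycycline summit 13.0 kb away at 5.12-fold with 6 fragments. Sema3d had 1 untreated summit 29.2 kb beyond its 3′ end at 3.93-fold with 4 fragments. Sema3c, which draws neural crest cells into the outflow tract, Sema3a (479 kb) and Sema3e had 0 in both lists. Inside the 5 semaphorin genes there were 0 summits of either list, for which the interval of the density reaches up to 3.35 per Mb and includes the 1.55 and 1.60 per Mb of all genes.

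Plexins, the signalling receptors of semaphorins, had doxycycline summits at 3 of 6 genes and untreated summits at 2 of 6, where length class shares give 1.71 and 1.79. Plxna4 (444 kb) had 2 of each inside it, the closest 72.5 kb apart. With doxycycline they reached 6.58-fold (chromosome 6, 32587984 to 32588129, −log10 q 5.34, 8 fragments) and 5.85-fold. Without it they reached 4.72-fold (32515577 to 32515711, 5 fragments) and 3.93-fold. Plxna2 had 1 doxycycline summit inside it, 52.1 kb from its start (chromosome 1, 194671745 to 194671934), at 5.85-fold, −log10 q 4.17 and 7 fragments. At Plxnb2 the doxycycline summit, 29.1 kb upstream with 6 fragments, lies 0.298 kb from Ppp6r2. Plxnb1 had 1 untreated summit of 4 fragments, 7.24 kb beyond its 3′ end. Plxna1 and Plxnd1, the receptor of Sema3e on blood vessels, had 0 in both lists. Of the neuropilins, Nrp1, also a co-receptor for vascular endothelial growth factor, had 1 doxycycline summit inside it, 21.2 kb from the 5′ end, at 5.12-fold with 6 fragments, and Nrp2 had 0.

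No doxycycline peak near a guidance gene overlapped an untreated peak, also not at the 7 genes that have both. There the closest summits of the lists were 50.5 kb apart in Epha3, 64.9 in Slit3, 72.5 in Plxna4, 91.3 in Robo1, 102 in Robo2, 142 in Ephb1 and 170.0 in Epha4. These 7 genes have a median length of 444 kb, against 27.3 kb for the 12 with doxycycline summits only. Over all genes the order is the same, with medians of 69.5 and 20.7 kb. Over the whole lists 2.01% of doxycycline and 1.71% of untreated peaks overlap a peak of the other. The local expectation was at most 2 times background at each of the 29 and 21 summits.

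The guidance gene itself was the nearest gene for 22 of the 29 doxycycline summits and for 20 of the 21 untreated ones. The 7 others are the 4 at Efna2 and those at Epha1, Plxnb2 and Epha6; the single untreated one is at Robo4. Few summits were close to a transcription start. Of the 35 genes with a RefSeq promoter, Efna4 and Epha7 had a doxycycline summit within 5 kb of a start, against 2.96% of all genes. Robo1 alone had an untreated one, 4.49 kb downstream of its listed start, which lies inside the gene interval, against 1.60%.

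Of 64 further guidance genes, drawn from textbook knowledge, 23 (35.9%) had a doxycycline summit and 12 (18.8%) an untreated one within 50 kb. Shares of their length classes would give 18.2 and 19.0. Further Eph, ephrin, semaphorin and plexin genes (median length 24.2 kb) had 4 and 5 of 20, against 20.3% and 19.1% of all genes. Their doxycycline share was thus near that of all genes, so the higher share of the 40 listed genes was not seen in them. Netrins, which attract or repel axons, with their receptors and partners (median 78.7 kb) had 10 and 5 of 19. Intracellular effectors (median 125 kb) had 9 and 2 of 25. These group counts are not adjusted for gene length. The strongest doxycycline peaks of the 64 were at Draxin, a secreted repellent, 20.2 kb away at 11.0-fold with 14 fragments, and at Ntn3, a netrin, 0.236 kb away at 10.6-fold with 14. Next came Ntng2 (9.50-fold, 5.08 kb away) and, inside their genes, Sema6d (8.77-fold), the netrin receptor Unc5b (7.19-fold) and Ntng1 (6.95-fold). The strongest untreated peaks were at Dcc, a netrin receptor, inside the gene at 10.2-fold with 12 fragments, and 23.4 kb from Sema6b, at 10.2-fold with 12. They were followed by Ntng1 (7.07-fold) and Srgap2 (6.29-fold), an effector of Robo, inside their genes.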

How the data were processed

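ChIP-seq was analysed from 1 deposited peak list per condition; the samples were 4 pull-down and 2 input libraries. Bowtie2 2.3.2, SAMtools 1.5, MACS2 2.1.1 and mm10 were used by the authors, per the submitters' processing notes; the sources used here give no settings and do not say if inputs entered or pull-downs were pooled. Per peak, the authors deposited a fold enrichment (a ratio at the summit), −log10 of the p-value and −log10 of the q-value. The deposited score repeats −log10 q and was not used. The deposited summit offset, in bases from the peak start, gave the summit position.

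Rows with the same interval were merged (3725 to 3640 and 4428 to 4379 rows). Pileup k and local expectation were solved from fold = (k + 1) / (expectation + 1) and an upper-tail Poisson p, within 0.01 of −log10 p, for 99.75% and 99.84% of peaks. Background is the most frequent expectation (0.368 and 0.272). The steps were tested on simulated data: 100% of 2000 pileups and 300 of 300 planted genes among 1000 were recovered.

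Members, lists and length classes were chosen with earlier results of these data known. Every gene with a summit was named; coordinates are given for the 12 genes with the highest doxycycline −log10 q and the 6 with the highest untreated one (ties kept). Of the further guidance genes, 6 and 4 were named. Intervals are exact 95% Poisson. A count from length class shares is the sum over genes of the share of all genes of that class. Coordinates are counted from 1. Exons, introns and library depth were not analysed here. Scripts ran in Python 3.11.15 (pandas 2.3.3, numpy 2.4.6, scipy 1.17.1), with figures from matplotlib 3.10.9.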

Additional observations from a re-analysis of the deposited data

How the results depend on the processing

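No paired analysis was possible because the deposited lists give no values per pull-down. At the reported setting 19 genes had doxycycline and 12 untreated summits, 29 and 21 in all. Inside the gene only, 11 genes had 17 doxycycline summits and 9 genes had 18 untreated ones. Within 10 kb, 12 genes had 19 doxycycline summits and 10 genes had 19 untreated ones. With −log10 q of at least 5 the counts were 11 genes with 12 doxycycline summits and 1 gene with 1 untreated summit. Among the top 1000 peaks of each list they were 8 with 9 and 4 with 4. With at least 6 fragments, 16 genes had 23 doxycycline summits and 5 genes had 5 untreated ones. With at least 5 fragments, a setting chosen after seeing the data, 9 genes had 10 untreated summits. Fewer peaks pass these by construction. Of these settings, only the −log10 q threshold has a share over all genes (8.52% doxycycline, 1.997% untreated). The other counts therefore do not show whether the gap from all genes remains. A limit in fragments also cuts the lists unequally, since their median pileups are 7 and 5. The promoter motif share was 0% for the 9 letters and 46.3% for the 6-letter core. The other settings (100 kb, nearest gene only, all rows, without peaks in both lists, and, chosen after seeing the data, without Efna3) moved no count by over 1.5 times. The number of overlapping peaks was 0 with each overlap rule. Low pileups limit what a gene's absence from a list can show.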

Other observations

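Just beyond the 50 kb limit, from 50 to 100 kb, lay the only peak near a guidance gene that was in both lists. It is 69.3 kb from Epha5, on chromosome 5, at 8.77-fold with 11 fragments in the doxycycline list (84486995 to 84487141) and 6.29-fold with 7 fragments in the untreated list (84486976 to 84487146). In the same range Sema3e had a doxycycline peak 65.4 kb away (chromosome 5, 13959731 to 13959966) at 11.7-fold, −log10 q 15.4 and 15 fragments, which is the second highest −log10 q after that of Epha2 among all doxycycline peaks within 100 kb of a guidance gene. Nrp2 had one 82.9 kb away at 6.58-fold with 8 fragments. Epha5, Sema3e and Nrp2 had no summit of either list within 50 kb.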
